A study of Mus musculus with 16 samples.

Results

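The difference of the genotype effect between the 2 tissues was measured for 14814 genes, out of 39017 in the deposited table and 27197 with a value above 0 in any library. These are the genes with a mean normalized value of at least 10 over the 16 libraries, and none was chosen for its response to genotype. RNA-seq libraries from poly-A RNA had been made from micro-dissected prefrontal cortex (PFC) and ventral midbrain (vMB) of 13-week-old male C57BL/6JRcc mice, and they form 4 groups of 4 libraries: PFC WT, PFC Mutant, vMB WT and vMB Mutant. Mutant mice were homozygous for the H150Y substitution in *Cdh2*, knocked in with CRISPR/Cas9, and WT mice carried the wildtype allele. The study describes 2 founder lines. The line of each Mutant library and which PFC and vMB libraries came from 1 animal are not stated, so a p-value here rests on the spread among libraries alone, which may be partly technical. The mice had gone through behavioral tests and were perfused with formaldehyde before dissection.

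For each gene the interaction is the Mutant minus WT difference in vMB less the Mutant minus WT difference in PFC, on the log2(value + 1) scale. It is also the vMB minus PFC difference in Mutant mice less the same difference in WT mice. A gene that is higher in vMB therefore has a weakened regional difference in Mutant mice when the interaction is negative and a widened one when it is positive, and for a gene that is higher in PFC the signs are the other way round. A call needed a p, adjusted over all genes, of no more than 0.05 together with a fold of 1.3 or more, and every p-value given below without another name is from limma.

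PFC is built mainly of glutamatergic projection neurons and GABAergic interneurons. vMB holds the dopamine neurons of the substantia nigra and the ventral tegmental area, which send axons to PFC, among many glutamatergic and GABAergic neurons and myelinated tracts. *Cdh2* encodes N-cadherin, which joins the membranes of neighboring cells and of synapses and binds the actin cytoskeleton through catenins. In RNA from whole tissue, fewer cells of a type and less RNA per cell cannot be told apart.

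The labelled tissues were checked with 12 markers, and for each of them the PFC and vMB libraries did not overlap. *Tbr1*, a transcription factor of cortical projection neurons, was at 1091 to 1577 in PFC and 6.70 to 98.2 in vMB libraries, and *Slc6a3*, the dopamine transporter, at 424 to 799 in vMB and 0 to 6.72 in PFC libraries. The markers *Foxa2* and *Pitx3* were low even in vMB, at 6.10 to 18.2 and 3.82 to 9.49. Some libraries stood apart within their group. vMB WT 3 and vMB Mutant 1 held more *Tbr1* (63.6 and 98.2) than the other vMB libraries (6.70 to 29.4), and their summed value of 20 cortical projection neuron genes was 4745 and 4892, against 3213 to 3582 in the other 6. PFC WT 3 and PFC Mutant 2 were high in 19 oligodendrocyte genes (summed value 77405 and 100078, against 27419 to 45284 in the other PFC libraries), and PFC Mutant 2 was also high in 13 genes of striatal projection neurons (7381 against 3168 to 4191). The values of a library summed to between 9750078 (PFC WT 3) and 10026466 (PFC Mutant 4) in PFC and between 8687620 (vMB WT 3) and 9121426 (vMB Mutant 2) in vMB. The depth, estimated from the most frequent low value, was about 7735651 (PFC Mutant 1) to 11292756 (vMB Mutant 3) reads in genes.

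No gene passed the test of the interaction (0 of 14814, percent called 0), and the smallest adjusted p was 0.50. With no adjustment, 864 genes (5.83%) had a p under 0.05, and the number expected if none differed is 740.7. Of these, 395 were positive (2.67% of all tested genes) and 469 negative (3.17%). The unadjusted 95% interval of the interaction reached, in the median, 0.38 to either side on the log2 scale, or 1.304-fold. For a typical gene with 4 libraries a group, an interaction below about this size could not leave 0 outside this interval. A call after adjustment over all genes needs a larger interaction, and *Eapp*, at 0.68, had an adjusted p of 0.50 (limma). The 0 calls therefore do not exclude interactions above 1.3-fold. The median size of the interaction, without its sign, was 0.14. The count was also 0 under each other setting tried with all 16 libraries. There, the genes with an unadjusted p under 0.05 ranged from 713 of 11737 tested (mean of at least 50) to 1361 of 27197 (no filter on low values). Without PFC WT 3, whether or not PFC Mutant 2 was also left out, 1 gene passed, the gene model *Gm14387*, which is named after its values were seen and was at 0 in PFC WT 1, 2 and 4 and at 22.3 in PFC WT 3. With vMB WT 3 and vMB Mutant 1 left out besides these, 0 genes passed. For 3651 genes (24.6%) the whole 95% interval lay within 1.3-fold in either direction.

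Regional differences were of similar size in Mutant and in WT mice. Regional genes were defined from the vMB minus PFC difference averaged over both genotypes, with a limit of 0.05 for the adjusted p and of 2 for the fold. This average does not depend on the interaction in a design with equal groups, so the interaction of these genes was not chosen by it. There were 2466 regional genes (16.6%), 1189 higher in vMB (8.03%) and 1277 higher in PFC (8.62%). *Aebp1* lay just inside the fold limit at 1.0002 and *Frrs1l* just outside it at −0.9998 on the log2 scale. Of the 2466, 2464 had the same sign in both genotypes, and for 2379 the 95% intervals of WT and Mutant mice both lay on 1 side of 0.

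The difference was smaller in Mutant mice for 1238 of the regional genes and larger for 1228. Across these genes the regional difference in WT and in Mutant mice had a correlation of 0.98 and a major-axis slope of 0.98. Across all 14814 genes the correlation was 0.94 and the slope 1.00. These are descriptions across genes, which are not independent replicates. Tested within 1 genotype at the same limits, 2427 genes were regional in WT (16.4%) and 2579 in Mutant mice (17.4%), and 2082 genes were in both lists, 85.8% of the WT list and 80.7% of the Mutant list, every one with the same sign. Of the 345 genes regional only in the WT list and the 497 only in the Mutant list, 43 (12.5%) and 96 (19.3%) had an interaction with an unadjusted p under 0.05, against 5.83% of all tested genes, and none passed after adjustment. These genes were picked for passing in 1 genotype and not in the other, which by itself raises these shares, so nothing is read from them.

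**Figure D1:**
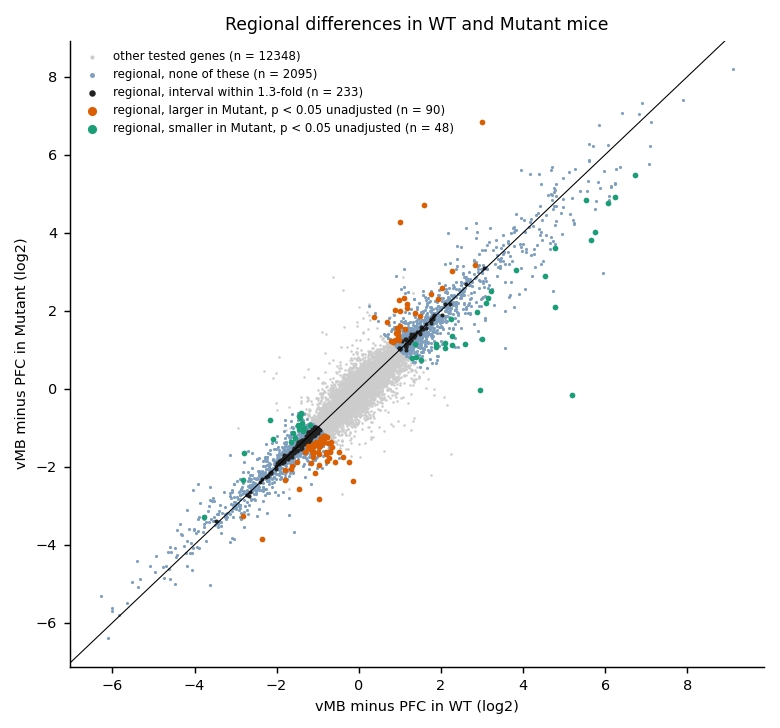
Each point is 1 of 14814 genes, with the vMB minus PFC difference in WT mice on the horizontal and in Mutant mice on the vertical axis, both as log2 of the normalized value plus 1. The line marks equal differences. Most of the 2466 regional genes lie close to it, with 48 genes smaller (green) and 90 larger (orange) in Mutant mice at an unadjusted p under 0.05, and 233 (black) whose interaction interval lay within 1.3-fold.

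For 233 regional genes the 95% interval of the interaction stayed within 1.3-fold, which is taken here as a kept difference. They are 9.45% of the regional genes, against 24.6% of all tested genes. The intervals of regional genes were wider (0.63 against 0.36 in the median for other genes, log2), and their values lower (median 127 against 227). Of the 233, 183 were higher in PFC and 50 in vMB. Measured against the size of the regional difference itself, the interval lay within 50% of it for 1283 regional genes (52.0%). For 2095 regional genes the interaction had neither an unadjusted p under 0.05 nor an interval within 1.3-fold, and the data do not tell whether they were kept.

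Among kept genes that were higher in vMB, the largest difference was that of *Vamp1*, which encodes a synaptic vesicle SNARE protein (ENSMUSG00000030337, chromosome 6, 125215551 to 125245964 of GRCm38). Its values were 1124, 891, 1339 and 1215 in PFC WT, 1149, 1262, 1079.5 and 1174 in PFC Mutant, 10839, 9006, 8080.0 and 9663 in vMB WT and 9719, 9445, 10776 and 10144 in vMB Mutant libraries. Every vMB value was far above every PFC value, while WT and Mutant overlapped in both tissues. The vMB minus PFC difference was 3.05 in WT and 3.10 in Mutant mice, an interaction of 0.06 (95% interval −0.26 to 0.37, unadjusted p = 0.712).

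*Slc6a11*, the GABA transporter GAT-3 of astrocytes, was at 1266 to 1448 in PFC WT, 1232 to 1443 in PFC Mutant, 5297 to 6261 in vMB WT and 4289 to 5412 in vMB Mutant libraries, and its regional difference was 2.02 in WT and 1.90 in Mutant mice. Of the 50 kept genes in this direction, the other 4 named by rule, which leaves out unnamed gene models, were *Lrig1*, which restrains growth factor receptors (regional difference 2.22 in WT and 2.18 in Mutant mice), *Ap1s2*, a subunit of the clathrin adaptor AP-1 (2.096 in WT and 2.18 in Mutant mice), the growth factor gene *Fgf1* (1.84 in WT and 1.89 in Mutant mice) and the potassium channel gene *Kcnh2* (1.803 in WT and 1.83 in Mutant mice). Their interactions lay between −0.05 and 0.08.

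On the PFC side, *Camk2n1*, which encodes an inhibitor of calcium/calmodulin-dependent kinase II (ENSMUSG00000046447, chromosome 4, 138454314 to 138460123), had values of 31102, 26097, 25974 and 32082 in PFC WT and 36183, 30886, 25962 and 30478 in PFC Mutant libraries. In vMB they were 4230.5, 4494, 4686 and 4083 in WT and 4482, 4838, 4087 and 5092 in Mutant libraries. The tissues were again fully apart and the genotypes were not. Its regional difference was −2.71 in WT and −2.73 in Mutant mice, an interaction of −0.02 (95% interval −0.31 to 0.27, unadjusted p = 0.894).

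*Ngef*, a guanine nucleotide exchange factor downstream of Eph receptors, was at 2392 to 2932 and 2728 to 3099.9 in PFC WT and Mutant libraries and at 352 to 493 and 374 to 468 in vMB. *Mgll*, the lipase that degrades the endocannabinoid arachidonoylglycerol, had a regional difference of −2.35 in WT and −2.32 in Mutant mice. The difference was −2.64 in WT and −2.64 in Mutant mice for *Ier5*, an immediate early response gene, −2.40 in WT and −2.40 in Mutant mice for the F-box gene *Fbxl16*, and −2.27 in WT and −2.27 in Mutant mice for the potassium channel gene *Kcnh1*. For these 6 genes, named by the same rule from the 183 kept genes higher in PFC, the interaction was between −0.06 (*Ngef*) and 0.03 (*Mgll*).

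**Figure D2:**
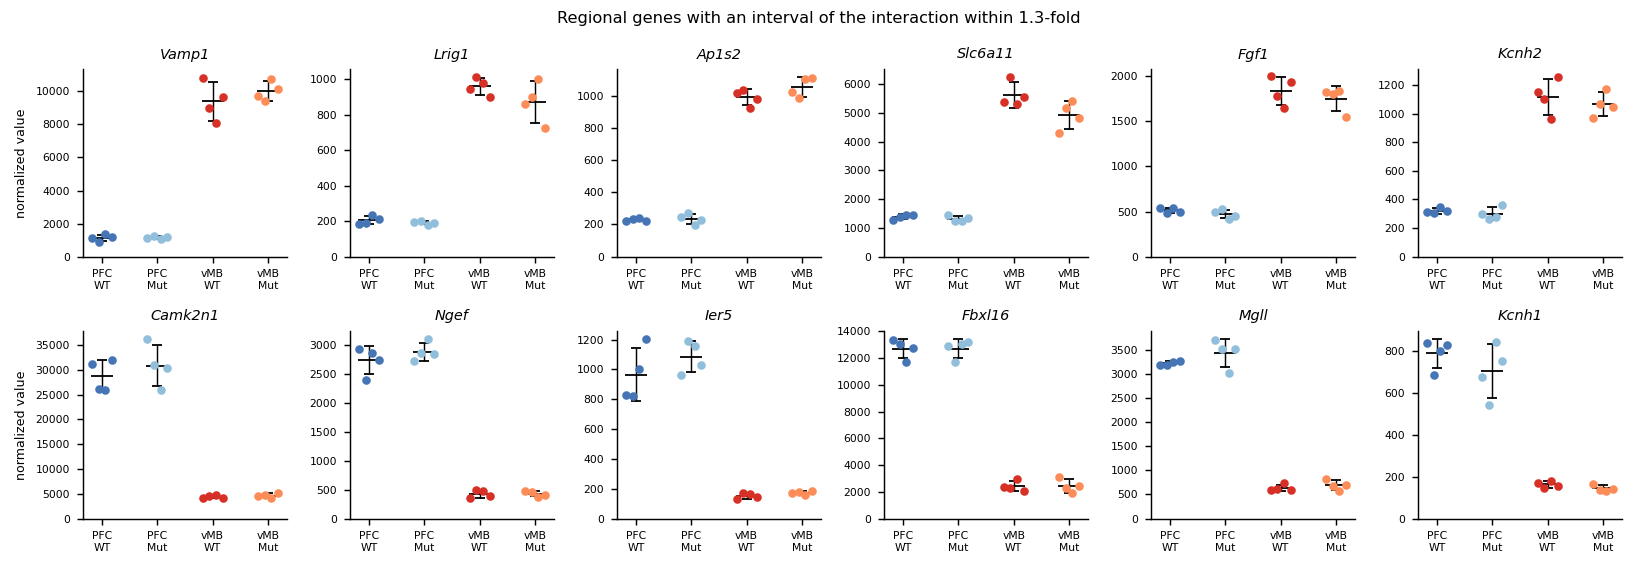
Normalized values (vertical axes, linear from 0) of the 12 named kept genes in the 16 libraries, with the mean and SD of each group of 4 as black bars. The upper row holds genes higher in vMB and the lower row genes higher in PFC: vMB and PFC libraries do not overlap in any panel, while WT and Mutant libraries of a tissue lie close together. The genes were chosen for large regional differences and for intervals within 1.3-fold, so this pattern follows from the choice and is no separate support.

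At an unadjusted p under 0.05, 48 regional genes had a smaller and 90 a larger difference in Mutant mice. Together they are 5.596% of the regional genes, near the 5.83% of all tested genes, and none passed after adjustment. Of the genes higher in PFC, 62 of 1277 (4.86%) were widened, which needs a negative interaction (3.17% of all tested genes), and 19 (1.49%) were weakened (positive, 2.67%). Of the genes higher in vMB, 29 of 1189 (2.44%) were weakened and 28 (2.35%) widened. Which of the 2 counts was larger depended on single libraries: there were 86 weakened and 72 widened without PFC WT 3, 86 and 69 without vMB WT 3, and 77 and 71 without vMB Mutant 3, while without vMB Mutant 1 there were 35 and 112. With vMB WT 3 and vMB Mutant 1 both left out the counts were 59 and 88, and with PFC WT 3 and PFC Mutant 2 also left out they were 77 and 101, alternatives added after the values were seen. Without PFC Mutant 3 alone 82 genes were weakened and 116 widened.

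Among the weakened genes higher in vMB was *Ddc*, the decarboxylase that makes dopamine and serotonin from their precursors (ENSMUSG00000020182, chromosome 11, 11814101 to 11898144). Its values were 37.9, 31.9, 39.1 and 24.0 in PFC WT and 59.8, 67.5, 45.3 and 44.8 in PFC Mutant libraries, with no overlap. In vMB they were 384, 580.5, 458 and 496 in WT and 367, 532, 509 and 398 in Mutant libraries, which overlapped. The vMB minus PFC difference was 3.82 in WT and 3.03 in Mutant mice, or 14.1-fold and 8.20-fold, an interaction of −0.79 (95% interval −1.32 to −0.25, unadjusted p = 0.00649), with a p of 0.728 after adjustment over all genes.

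*En2*, a homeobox gene of the midbrain and hindbrain (ENSMUSG00000039095, chromosome 5, 28165694 to 28172166), was at 3.32, 5.65, 2.32 and 3.54 in PFC WT and 27.2, 15.4, 4.41 and 7.84 in PFC Mutant libraries, and at 79.5 to 129 and 66.8 to 117 in vMB. WT and Mutant libraries overlapped in both tissues. PFC Mutant 1 was the highest PFC library, and the interaction of −1.63 (95% interval −2.77 to −0.49, unadjusted p = 0.00764) was −1.23 without it. *Agt*, the hormone precursor angiotensinogen that astrocytes make in brain (ENSMUSG00000031980, chromosome 8, 124556534 to 124569706), was at 21.0, 40.7, 38.2 and 34.2 in PFC WT and 77.7, 68.7, 51.8 and 49.3 in PFC Mutant libraries, and at 1436 to 1678 in vMB WT and 1526 to 2028 in vMB Mutant libraries. Its regional difference was 5.54 in WT and 4.83 in Mutant mice, an interaction of −0.72 (95% interval −1.23 to −0.20, unadjusted p = 0.00954). In *Ddc*, *En2* and *Agt* the larger genotype difference was the one in PFC, at 0.70, 1.42 and 0.88, against −0.09, −0.21 and 0.16 in vMB.

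In the other 4 weakened genes with the smallest p, PFC values were higher and vMB values lower in Mutant mice. *Col11a1*, a fibrillar collagen gene, was at 110.4, 74.0, 106 and 111 in PFC WT and 172, 130.2, 109 and 139.8 in PFC Mutant libraries, and at 302, 388, 352 and 440.4 in vMB WT and 282, 308, 306 and 322 in vMB Mutant libraries. WT and Mutant overlapped in both tissues, though the means moved apart in opposite directions, and the interaction was −0.73 (95% interval −1.17 to −0.28, unadjusted p = 0.00304). For *Cyp26b1*, whose product degrades retinoic acid, the genotype difference was 0.47 in PFC and −0.46 in vMB, and the regional difference 2.104 in WT and 1.17 in Mutant mice. It was 0.47 in PFC and −0.45 in vMB for *Lgr5*, a receptor for R-spondins (regional difference 2.88 in WT and 1.96 in Mutant mice), and 0.32 in PFC and −0.45 in vMB for *Dnah7b*, a heavy chain of ciliary dynein (regional difference 1.52 in WT and 0.74 in Mutant mice).

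Further weakened genes, chosen after their values were seen, mark cell groups outside PFC. *Dbh* and *Slc6a2*, the enzyme and the transporter of noradrenaline neurons, were at 109 to 178 and 91.4 to 167 in vMB WT and 91.8 to 118 and 76.0 to 90.96 in vMB Mutant libraries, and at 0 to 2.24 and 0 to 1.08 in PFC WT and 1.95 to 4.20 and 0 to 1.92 in PFC Mutant libraries. *Barhl1* and *Irx3*, homeobox genes of the caudal brain, were at 0 to 1.21 and 0 to 3.96 in PFC WT and 2.14 to 6.64 and 3.48 to 7.71 in PFC Mutant libraries. The interactions of *Dbh*, *Slc6a2*, *Barhl1* and *Irx3* were −1.31, −1.25, −1.75 and −1.32. Their genotype differences in PFC, 0.84, 0.66, 1.55 and 1.29, rest on values of a few reads and on the 1 added before the log. The genotype differences in vMB were −0.47, −0.59, −0.20 and −0.03, so part of the interaction of *Dbh* and *Slc6a2* came from vMB. *Fat2*, a cadherin of cerebellar granule cells, reached 56.6 in PFC Mutant 1 and 29.8 in PFC Mutant 2, against 0 to 3.33 in PFC WT libraries and 0 and 2.21 in the other PFC Mutant libraries, and was at 45.5 to 100.2 in vMB WT and 19.2 to 61.2 in vMB Mutant libraries. PFC Mutant 1 also had the highest PFC values of *En2* and *Th*, and a value of 104 for the hypothalamic peptide gene *Avp*, against 0 to 7.91 in the other PFC libraries. These genes were picked, and not all markers of cells outside PFC were higher in PFC Mutant libraries. The summed value of 7 genes of serotonin neurons was 189 to 229 in PFC WT and 167 to 232 in PFC Mutant libraries. The part of such tissue traces in the weakened differences was not tested.

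*Tac2*, which encodes the peptide neurokinin B, had the smallest p of the weakened genes higher in PFC (ENSMUSG00000025400, chromosome 10, 127724478 to 127731768). It was at 59.8, 83.7, 62.6 and 73.1 in PFC WT and 79.0, 68.7, 74.9 and 59.4 in PFC Mutant libraries, which overlapped. In vMB it was at 18.9, 11.96, 17.8 and 11.4 in WT and 38.4, 22.3, 52.5 and 53.9 in Mutant libraries, with no overlap. Its regional difference was −2.16 in WT and −0.81 in Mutant mice, an interaction of 1.35 (95% interval 0.62 to 2.09, unadjusted p = 0.00115). *Tac2* also belongs to a list of 16 hypothalamic neuropeptide genes, of which 11 were tested. *Pmch* and *Hcrt*, the peptides of 2 groups of lateral hypothalamic neurons, were at 17.0, 3.68, 268 and 16.1 and 1.06, 0, 51.9 and 2.12 in vMB WT and at 229, 168, 307 and 889.5 and 40.3, 22.0, 46.7 and 168 in vMB Mutant libraries. vMB WT 3 lay among the Mutant libraries for both genes, and the other vMB WT libraries were near the PFC level of 0 to 21.5 and 0 to 3.21. Their interactions were 3.84 (95% interval 0.67 to 7.0004, unadjusted p = 0.0203) and 3.14 (95% interval 0.26 to 6.01, unadjusted p = 0.0343). With *Tac2*, 3 of the 11 were positive at an unadjusted p under 0.05 (2.67% of all tested genes) and none negative (3.17%), with a list median of 0.17. In vMB WT 3 *Tac2* was at 17.8, within the range of the other vMB WT libraries (11.4 to 18.9). The share of hypothalamic tissue in each vMB library was not tested.

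At a mean of at least 50, the 6 widened genes with the smallest p were all higher in PFC. Each had a lower mean in vMB Mutant than in vMB WT libraries. *Nav2*, neuron navigator 2, which acts on the cytoskeleton of growing axons (ENSMUSG00000052512, chromosome 7, 48908716 to 49610090), was at 799, 761, 816 and 835 in PFC WT and 633, 581, 592 and 654 in PFC Mutant libraries. In vMB it was at 361, 375, 396 and 367 in WT and 235, 204, 229 and 224 in Mutant libraries. WT and Mutant did not overlap in either tissue, and the genotype difference was −0.38 in PFC and −0.75 in vMB. The regional difference was −1.10 in WT and −1.46 in Mutant mice, an interaction of −0.36 (95% interval −0.56 to −0.16, unadjusted p = 0.00126).

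*Miat*, a long noncoding RNA of neurons (ENSMUSG00000097767, chromosome 5, 112213228 to 112229395), was at 4954, 6384, 4814 and 5380.1 in PFC WT and 4373, 3930.2, 4654 and 4999.8 in PFC Mutant libraries, which overlapped, and at 2451, 2406, 2531 and 2481 in vMB WT and 1728, 1461, 1195 and 1520.1 in vMB Mutant libraries, which did not. Its interaction was −0.49 (95% interval −0.80 to −0.19, unadjusted p = 0.00344). The kinesin gene *Kif21b* was at 702 to 949 in vMB WT and 496 to 568 in vMB Mutant libraries and had a regional difference of −0.94 in WT and −1.35 in Mutant mice. For *Cabin1*, a calcineurin inhibitor, the difference was −0.91 in WT and −1.25 in Mutant mice, for *Med24*, a subunit of Mediator, −0.91 in WT and −1.31 in Mutant mice, and for *Odf2*, a protein of centriole appendages, −0.92 in WT and −1.304 in Mutant mice. In these 5 genes the PFC genotype difference lay between −0.26 and 0.05 and the vMB difference between −0.75 and −0.35.

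The smallest p-values of the interaction belonged to genes that were not regional. In WT mice the vMB minus PFC difference of the 8 positive and 6 negative genes described here lay between −0.57 (*Mllt10*) and 0.44 (*Uqcc1*). *Eapp*, whose product binds E2F transcription factors (ENSMUSG00000054302, chromosome 12, 54670340 to 54695897), had values of 289.7, 236, 266 and 285 in PFC WT and 228, 214, 217 and 230.5 in PFC Mutant libraries. In vMB they were 238, 249, 217 and 255 in WT and 313, 316, 289 and 355 in Mutant libraries. Mutant libraries were thus all lower in PFC and all higher in vMB, each with the smallest p that an exact permutation test of 4 against 4 can give (0.0286, two-sided). *Eapp* was named for its small interaction p in these same libraries, so the permutation test adds no separate support. The genotype difference was −0.27 in PFC and 0.41 in vMB, an interaction of 0.68 (95% interval 0.42 to 0.94, unadjusted p = 3.5e-05), with an adjusted p of 0.50 over all genes.

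*Mllt10*, a partner of the histone methyltransferase Dot1l (ENSMUSG00000026743, chromosome 2, 18055237 to 18212388), also had opposite directions. It was at 392, 372, 297 and 295 in PFC WT, 245, 265, 281 and 259 in PFC Mutant, 259, 211, 216 and 219 in vMB WT and 282, 290.2, 302 and 257 in vMB Mutant libraries. PFC libraries of the 2 genotypes did not overlap and those of vMB did, with vMB Mutant 4 at 257. Its interaction was 0.68 (95% interval 0.38 to 0.98, unadjusted p = 1.9e-04). Of the other 6 positive genes, *Nudt21*, a factor of poly(A) site choice, and *Parp11*, a mono-ADP-ribosyltransferase, had negative PFC and positive vMB differences (−0.47 in PFC and 0.21 in vMB, and −0.37 in PFC and 0.32 in vMB). So did *Uqcc1*, an assembly factor of respiratory complex III (−0.27 in PFC and 0.28 in vMB), and *Tmem241* (−0.53 in PFC and 0.49 in vMB). For *Tmem167*, a protein of the secretory pathway, and *Ube2b*, a ubiquitin-conjugating enzyme, the vMB difference was the larger one (−0.06 in PFC and 0.45 in vMB, and −0.08 in PFC and 0.22 in vMB).

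The 6 negative genes were lower in vMB Mutant libraries and had smaller differences in PFC. *Arhgef1*, a guanine nucleotide exchange factor for small GTPases (ENSMUSG00000040940, chromosome 7, 24902912 to 24926594), was at 594, 811, 732 and 734 in PFC WT and 876, 812, 749 and 643 in PFC Mutant libraries. It was at 733, 772, 621 and 722 in vMB WT and 369.6, 502, 445 and 441 in vMB Mutant libraries, so the genotypes overlapped in PFC only. Its interaction was −0.80 (95% interval −1.14 to −0.46, unadjusted p = 1.0e-04). In WT mice *Arhgef1* had a vMB minus PFC difference of −0.01, and in Mutant mice of −0.81.

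The other 5 were the RNA-binding protein gene *Atxn2l*, the chromatin regulator gene *Rai1*, *Vwa5b2*, the adenylyl cyclase gene *Adcy6* and the splicing factor gene *Srrm2*. Their interactions lay between −0.53 (*Vwa5b2*) and −0.34 (*Srrm2*). *Srrm2* was at 6685, 7809, 6789 and 7116 in PFC WT and 5825, 5475, 6213 and 5998 in PFC Mutant libraries, and at 4697, 5212, 4956 and 5447 in vMB WT and 3251, 3384, 3315 and 3334 in vMB Mutant libraries. It was lower in all Mutant libraries of both tissues, and the vMB difference of −0.61 exceeded the PFC difference of −0.27. All 14 of these genes had the same sign of interaction when any 1 library was left out and under each other setting tried, and none of them passed after adjustment in any.

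**Figure D3:**
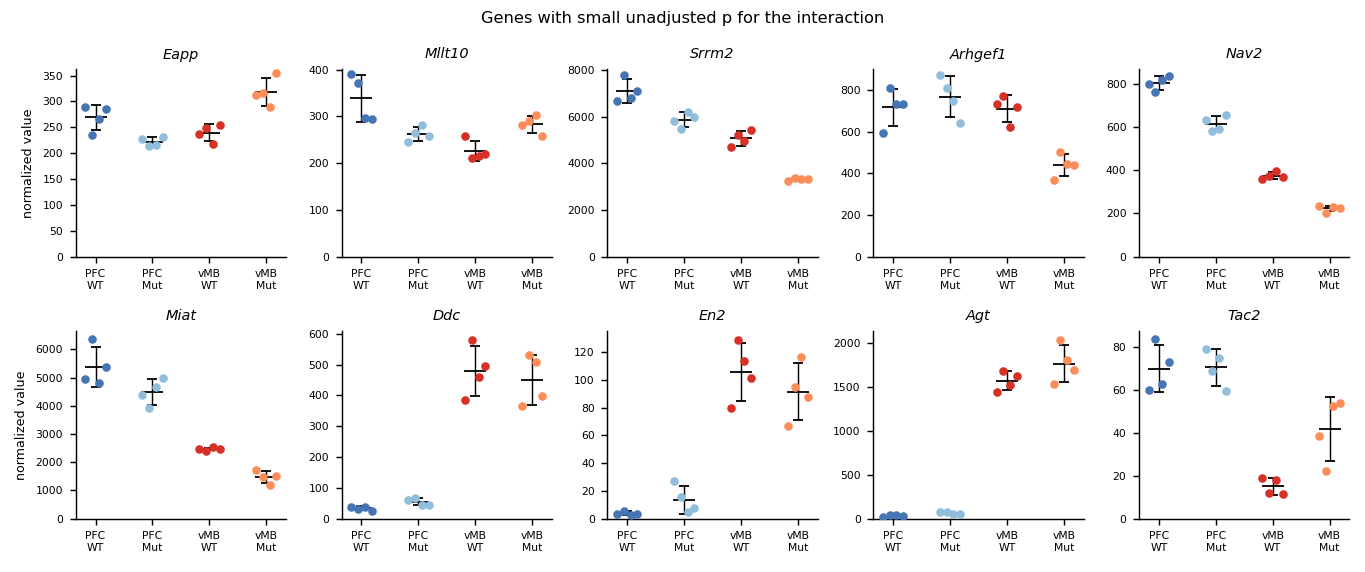
Normalized values (vertical axes, linear from 0) in the 16 libraries of 10 genes with an unadjusted interaction p under 0.05, with group mean and SD in black. *Eapp* and *Mllt10* went down in PFC and up in vMB Mutant libraries in their means. *Srrm2*, *Arhgef1*, *Nav2* and *Miat* were lower in vMB Mutant libraries, *Ddc* and *Agt* were higher in PFC Mutant libraries, and *Tac2* was higher in vMB Mutant libraries. *En2* was higher in PFC Mutant libraries in its mean, with overlap.

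The genotype differences of the 2 tissues tended to the same side. Across 14814 genes they had a correlation of 0.33, a description across genes, with no library shared between the tissues. The genotype difference itself passed in PFC for 21 genes (0.142%) and in vMB for 481 (3.25%) at the limits used for the interaction, and which of these differ between tissues is not shown by those counts. WT and Mutant libraries did not overlap for 1188 genes in PFC (8.02%) and for 2279 in vMB (15.4%). For 461 genes (3.11%) they did not overlap in both tissues and moved the same way, 273 higher and 188 lower in Mutant mice. For 3 genes (0.0203%) they did so in opposite directions: *Eapp* and *BC023829* were lower in PFC and higher in vMB, and *Nr1i3*, a nuclear receptor gene, was higher in PFC (11.6 to 19.0 in WT, 19.1 to 25.9 in Mutant) and lower in vMB (18.3 to 24.8 and 11.99 to 18.02). *BC023829* and *Nr1i3* are named after their values were seen. With each library's trend with exon length removed, an alternative added after the values were seen, the correlation was 0.25, and 230 genes (1.55%) had the same and 6 (0.0405%) opposite directions.

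**Figure D4:**
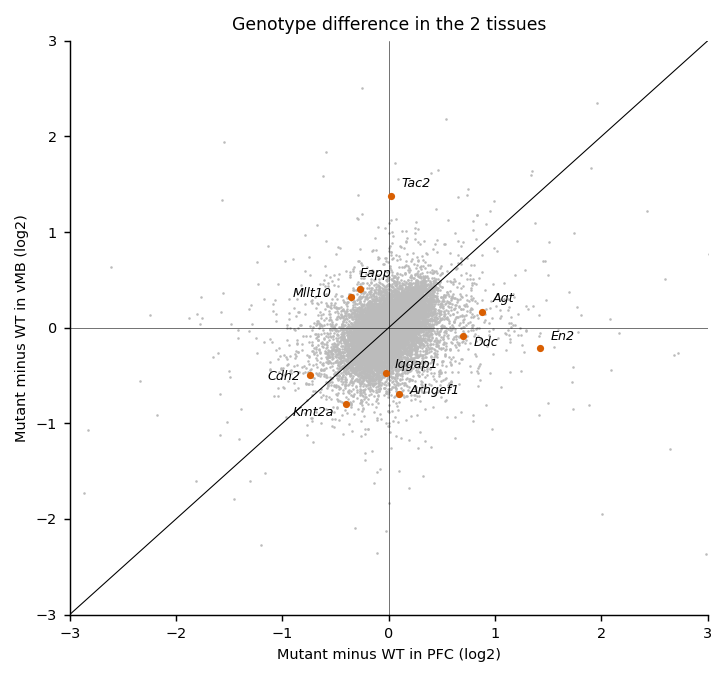
Mutant minus WT in PFC (horizontal) and in vMB (vertical) for 14814 genes, as log2 of the normalized value plus 1. The vertical distance from the diagonal is the interaction: *Tac2*, *Eapp* and *Mllt10* lie above it and *Arhgef1*, *Ddc*, *En2* and *Agt* below it, and 7 genes fall outside the axes, which end at 3 in either direction.

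Transcript length moved with genotype in both tissues and less with their difference. The mean slope over the libraries of a group, of log2 values centred for each gene against log2 exon length, was 0.0846 in PFC WT and 0.000279 in PFC Mutant libraries, and 0.00771 in vMB WT and −0.0926 in vMB Mutant libraries. The change was −0.0843 in PFC and −0.100 in vMB, a difference between the tissues of −0.0160. In 5 classes of exon length the median interaction went from 0.03 in the shortest to −0.02 in the class before the last and −0.01 in the longest class. The longest class held 151 genes with a negative interaction at an unadjusted p under 0.05 and 91 with a positive one, and the shortest class 43 and 76. After this trend was taken out of each library, the totals were 518 positive and 412 negative, in place of 395 and 469. The direction in which most of the interactions at this limit lie therefore depended on that correction.

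Members of 30 gene lists were described by their counts. No member of any list passed the test of the interaction, and the median over all 14814 genes was 0.00. Counts of members at an unadjusted p under 0.05 stand beside 2.67% positive and 3.17% negative of all tested genes. Counts of members with an interval within 1.3-fold stand beside 24.6% of all tested genes. Members other than the 1 with the smallest p in a list are named after their values were seen. Of 13 genes of dopamine synthesis and transport 12 were tested, 8 of them regional and all 8 higher in vMB. Their interactions ran from −1.15 to 0.19 with a median of −0.11, 2 were negative at an unadjusted p under 0.05 (*Ddc*, and *Gch1*, which makes the cofactor of tyrosine hydroxylase, at −1.15) and none positive. *Th*, tyrosine hydroxylase, which takes the limiting step toward dopamine, was at 15.0, 23.0, 18.5 and 22.4 in PFC WT and 43.5, 19.6, 20.9 and 30.8 in PFC Mutant libraries, and at 531, 523, 289 and 360.4 in vMB WT and 312, 412, 382 and 346 in vMB Mutant libraries. The genotypes overlapped in both tissues, and the regional difference was 4.34 in WT and 3.68 in Mutant mice, an interaction of −0.66 (95% interval −1.36 to 0.04, unadjusted p = 0.0632). *Slc6a3*, at 0 to 6.72 in PFC, had a regional difference of 7.90 in WT and 7.41 in Mutant mice and a wide interval (−2.02 to 1.04).

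Among transcription factors of midbrain dopamine neurons, 10 of 15 were tested and *En2* alone had an unadjusted p under 0.05. The median interaction was −0.09. The 7 tested genes of serotonin neurons, of which 4 were regional and higher in vMB, had a median of −0.73, and 1 of them was negative at this limit (*Gata2*, −0.65). *Tph2*, the enzyme of serotonin synthesis in neurons, was at 75.5, 419, 389 and 513 in vMB WT and 122, 393, 216 and 100.3 in vMB Mutant libraries. It varied several-fold within both groups, which overlapped, and its interval ran from −2.73 to 0.82.

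The markers of cortical projection neurons, of which 15 of 20 were regional, had a median regional difference of −2.30 in WT and −2.17 in Mutant mice and a median interaction of 0.11. The homeobox gene *Cux1* alone had an unadjusted p under 0.05 (−0.30). It was not among the regional genes, and its vMB minus PFC difference was 0.32 in WT and 0.02 in Mutant mice. The 19 oligodendrocyte and myelin genes were all higher in vMB, with a median difference of 2.11 in WT and 1.99 in Mutant mice. None of them had an unadjusted p under 0.05, and none had an interval within 1.3-fold, while their PFC sums were high in PFC WT 3 and PFC Mutant 2. *Mbp*, which encodes myelin basic protein, was at 13283, 17215, 36019 and 12537 in PFC WT and 20159.9, 50443, 14114 and 21766 in PFC Mutant libraries.

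Of 15 astrocyte genes, 7 had an interval within 1.3-fold (24.6% of all tested genes did). *Agt* was the negative one at an unadjusted p under 0.05 and *Gfap*, the intermediate filament of reactive and white matter astrocytes, the positive one, with a regional difference of 1.77 in WT and 2.44 in Mutant mice. *Aldoc* and *Gja1*, 2 other astrocyte genes, had interactions of 0.03 and 0.14. The 15 endothelial genes had a median interaction of −0.32, the lowest but 1 of the 30 lists, with 12 of 15 negative. Their median genotype difference was −0.12 in PFC and −0.45 in vMB, against −0.01 for all genes in each tissue. The summed value of the 15 genes was 4529, 3309, 3580 and 4582 in vMB WT libraries. It was 3079, 3706, 3358 and 3166 in vMB Mutant libraries, so vMB WT 2 and vMB WT 3 lay within the Mutant range. These genes mark the same cell type and are not independent. *Pecam1*, an adhesion protein of endothelial junctions, was at 196, 157, 171 and 219 in PFC WT and 222, 186, 139 and 181 in PFC Mutant libraries, and at 200.5, 121, 135 and 195 in vMB WT and 112, 118, 89.5 and 91.6 in vMB Mutant libraries. All 4 vMB Mutant libraries lay below every vMB WT value. Its interaction of −0.60 had an unadjusted p of 0.0262, the smallest of the list.

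The pericyte and smooth muscle genes had a median of −0.20 (13 tested, 2 negative and 1 positive at an unadjusted p under 0.05). *Pdgfrb*, the receptor that recruits pericytes to vessels, was at 220.4, 208, 235 and 247 in PFC WT and 241, 208, 189.5 and 213 in PFC Mutant libraries, with overlap. It was at 167, 139, 166 and 166 in vMB WT and 126, 103, 107 and 101 in vMB Mutant libraries, without overlap, and its interaction was −0.44 (95% interval −0.75 to −0.13, unadjusted p = 0.00783). The 14 microglial genes had a median of −0.04, with 1 negative at this limit, *Cx3cr1* (−0.37), the receptor of fractalkine.

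For *Cdh2* itself the genotype difference was −0.74 in PFC and −0.50 in vMB. Its values were 1103, 1165, 1023 and 923 in PFC WT and 522, 779.6, 663 and 577 in PFC Mutant libraries, which did not overlap. In vMB, Mutant libraries lay at 1109.7, 1043, 590.0 and 574, against 1082, 1115, 1148 and 1124 in WT, and the spread among vMB Mutant libraries (SD 287) was the widest of the 4 groups. The interaction was 0.24 (95% interval −0.29 to 0.78, unadjusted p = 0.351), which leaves both no difference and a difference of more than 1.3-fold within the interval. Among 16 tested genes that build or process the cadherin-catenin complex, 5 had an interval within 1.3-fold, near the 24.6% of all tested genes. Of the 16, 1 had an unadjusted p under 0.05. This was *Iqgap1*, a scaffold between cadherin junctions and actin, at 193, 185, 212 and 217 in vMB WT and 159, 140.2, 151 and 129 in vMB Mutant libraries, which did not overlap. In PFC it was at 256, 254, 248 and 270.0 in WT and 281, 259.5, 217 and 259 in Mutant libraries. For *Ctnnd1*, a catenin that stabilizes cadherins at the membrane, the interaction was −0.12 (95% interval −0.43 to 0.18, unadjusted p = 0.412), with both genotype differences negative (−0.26 in PFC and −0.38 in vMB).

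Of 23 other cadherins, 4 were negative at an unadjusted p under 0.05 (3.17% of all tested genes) and none positive (2.67%), with a list median of −0.05. *Dchs1*, a cadherin of planar polarity, was at 169, 189.6, 203 and 228 in vMB WT and 89.3, 123, 130.5 and 96.8 in vMB Mutant libraries, and at 124, 157, 137 and 117 in PFC WT and 109, 106, 106 and 113 in PFC Mutant libraries. It was lower in every Mutant library of both tissues and its regional difference went from 0.56 in WT to 0.00 in Mutant mice. The other 3 were *Celsr3* (−0.32), *Fat3* (−0.25) and *Fat2*. In the axon guidance list 1 of 36 was positive (*Sema3a*, 0.41) and 3 were negative (*Efna5*, −0.65, *Plxna1*, −0.26, and *Sema6a*, −0.41), and the median was 0.01.

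Of 26 genes of the presynaptic release machinery, 14 had an interval within 1.3-fold (24.6% of all tested genes did), and of the 15 regional ones 6 were kept. The median regional difference was −0.68 in WT and −0.63 in Mutant mice. Only *Unc13b*, a priming factor of synaptic vesicles, had an unadjusted p under 0.05, at 181, 184, 184 and 131 in vMB WT and 149, 120.3, 100.4 and 86.6 in vMB Mutant libraries and an interaction of −0.55. The genotypes overlapped in vMB for this gene, and in PFC they lay at 495 to 678 in WT and 489 to 703 in Mutant libraries. Of 22 glutamate receptor genes, 5 had such an interval, 9 were regional, 1 was positive at this limit (*Grm8*, 0.36) and the median was 0.02. For 15 GABA-A receptor genes the median was 0.12, and the interactions ran from −2.24 to 0.28. An interval within 1.3-fold was found for 2 of them, and none had an unadjusted p under 0.05.

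Ribosomal protein genes had median genotype differences of 0.33 in PFC and 0.36 in vMB, with a median interaction of 0.03. An interaction interval within 1.3-fold was found for 48 of 81, against 24.6% of all tested genes. Reads of ribosomal protein genes can also match their many pseudogenes, so single members are uncertain. Respiratory complex I genes had medians of 0.22 in PFC and 0.35 in vMB and an interaction median of 0.07, with 30 of 37 positive. The interval lay within 1.3-fold for 23 of the 37, against 24.6% of all tested genes. *Ndufc2*, the member with the smallest p, was at 723, 711, 664 and 659.7 in PFC WT and 759.8, 749, 772 and 706 in PFC Mutant libraries, and at 959, 920.0, 856 and 912 in vMB WT and 1084, 1234, 1216 and 1303 in vMB Mutant libraries (interaction 0.29). Its vMB libraries did not overlap. The 13 mRNAs of mitochondrial DNA all had a positive interaction, between 0.02 and 0.18, none with an unadjusted p under 0.05. They are cut from shared precursor transcripts and are not independent.

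The 9 H3K4 methyltransferase genes had a median interaction of −0.20, and 3 were negative at an unadjusted p under 0.05, as were 3.17% of all tested genes (*Kmt2a*, −0.39, *Kmt2b*, −0.48, and *Setd1a*, −0.27). *Kmt2a*, which methylates histone H3 at active promoters, was at 1939.7, 2117, 1739 and 2154 in PFC WT and 1336, 1434, 1617 and 1608 in PFC Mutant libraries. In vMB it was at 1273, 1695, 1512 and 1714 in WT and 1012, 839.9, 909 and 789 in Mutant libraries, so Mutant libraries were lower in both tissues, without overlap. Immediate early genes, which neuronal activity induces, were higher in PFC for 15 of 17. Their median regional difference was −2.63 in WT and −2.31 in Mutant mice, and none had an unadjusted p under 0.05. *Nr4a3* had the smallest p of the list, with 79.8, 57.3, 108 and 59.5 in vMB WT and 222, 89.3, 33.8 and 93.5 in vMB Mutant libraries, and its interval of −0.48 to 1.87 was among the wide ones.

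**Figure D5:**
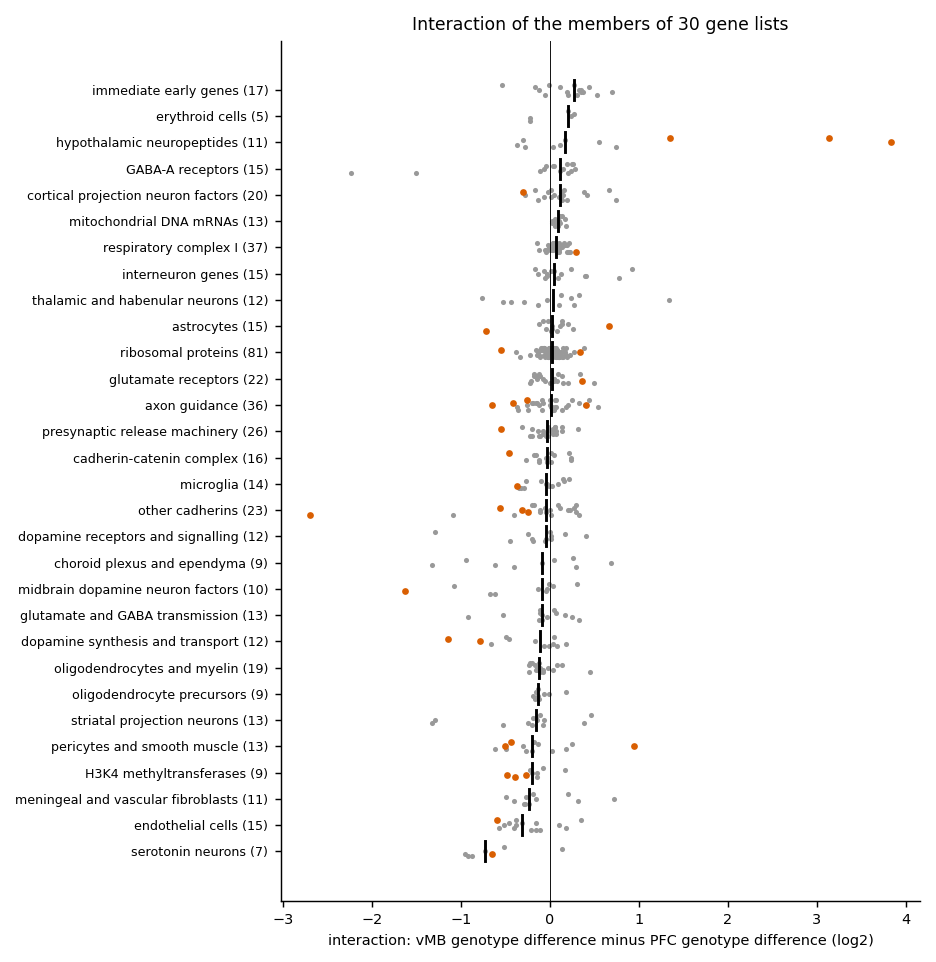
Interaction (horizontal axis, log2) of each tested member of 30 gene lists, with the number of tested members in parentheses, the list median as a black bar and members with an unadjusted p under 0.05 in orange. The medians run from −0.73 for serotonin neuron genes to 0.27 for immediate early genes, and the points farthest from 0 are *Pmch* and *Hcrt* on the positive and *Fat2* on the negative side.

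The tested members of thalamic and habenular neurons (12), striatal projection neurons (13), interneurons (15), glutamate and GABA transmission (13), dopamine receptors and signalling (12), oligodendrocyte precursors (9), meningeal and vascular fibroblasts (11), choroid plexus and ependyma (9) and erythroid cells (5) held none with an unadjusted p under 0.05, and their median interactions lay between −0.23 (fibroblasts) and 0.21 (erythroid cells). The choroid plexus sum varied from 669 to 10123 among vMB WT libraries and from 1146 to 8665 among vMB Mutant libraries. *Slc17a6*, the vesicular glutamate transporter of subcortical neurons, was at 57.8 to 109.6 in PFC WT, 57.0 to 80.4 in PFC Mutant, 2101 to 2359.5 in vMB WT and 1948 to 2439.6 in vMB Mutant libraries, an interaction of 0.33. *Drd2*, the D2 dopamine receptor, was at 8.86, 10.2, 27.8 and 3.54 in PFC WT and 11.7, 83.1, 11.02 and 25.8 in PFC Mutant libraries. Its PFC Mutant 2 value, the highest, came with the high striatal sum of that library, and the interaction of −1.29 had an interval that includes 0.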

How the data were processed

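RNA had been sequenced from 16 libraries, 4 in each of 4 groups, which were taken from the sample labels. Per the labels and the methods of the study, reads were trimmed with Cutadapt 1.8.3, aligned with TopHat 2.0.10, counted with HTSeq-count 0.6.1p1 and normalized with DESeq2, for which no version is stated. The values deposited by the authors, 1 per gene and library, are this normalized signal. The genome named is a human build although the identifiers are of mouse genes, so the mouse build behind the counts is not known. Coordinates and exon lengths (14659 genes, 99.0%) come from GENCODE M21 on GRCm38, matched on Ensembl identifier. In each library 66.3 to 70.0% of the low values lay within 0.05 of a whole number of reads, so no count model was used. Columns with the authors' own comparisons (p-values, signed fold changes and pass marks) were not used, and 0 columns belonged to other samples.

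Genes with a mean of at least 10 were tested on log2(value + 1) with limma 3.58.1 in R 4.3.3 (1 model with 4 group means, empirical Bayes with a mean-variance trend), and p-values were adjusted over all 14814 genes with the Benjamini-Hochberg method. Tables were made with pandas 2.3.3 and numpy 2.4.6. The test was tested on simulated data. For single genes, the libraries of both genotypes in a tissue were set against all 70 ways to divide 8 libraries (exact permutation test, two-sided). Regional genes passed 0.05 after adjustment and a fold of 2 in the mean over both genotypes. A regional difference counts as weakened or widened at an unadjusted interaction p under 0.05, and as kept where the 95% interval lies within 1.3-fold. Genes named by rule were *Cdh2*, *Ctnnd1*, *Iqgap1*, *Ddc*, *Th* and *Slc6a3*, and, at a mean of at least 50, the 8 smallest p-values in each direction, the 6 smallest among weakened and among widened genes and the 6 largest kept differences on each side, and the member of each list with the smallest p, without unnamed gene models. Of these genes, 2 are not reported here. The members and lists were chosen with earlier results of these data known. The alternatives were other pseudocounts, filters, scalings and fits, a correction for exon length, a replicate block and leaving out libraries.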

Additional observations from a re-analysis of the deposited data

Results flagged for a closer look

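*Eapp* was lower in all Mutant libraries of PFC and higher in all Mutant libraries of vMB, an interaction of 0.68 on the log2 scale that did not pass after adjustment over all genes (limma, adjusted p = 0.50). No overlap in both tissues with opposite directions, of either kind, was seen for 3 of 14814 genes (0.0203%).

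In 284 groups of 4 libraries (71 genes), 17 had 1 library far from the other 3. Chance gives about 1 such group in 20. The value of *Atxn2l* in vMB Mutant 2 was 1372, that of *Vwa5b2* in vMB Mutant 1 was 504 and that of *Parp11* in PFC Mutant 3 was 139.8. *Ube2b* stood apart at 1305 in PFC Mutant 2 and at 1165 in vMB Mutant 2. Of the regional genes, *Kif21b* stood at 949 in vMB WT 4, *Col11a1* at 74.0 in PFC WT 2, *Cabin1* at 822 in PFC Mutant 2, *Dnah7b* at 136 in vMB Mutant 3 and *Fgf1*, a kept gene, at 1545 in vMB Mutant 4. Among list members, *Pdgfrb* stood at 139 in vMB WT 2, the ephrin gene *Efna5* at 140.0 in PFC Mutant 3, *Unc13b* at 131 in vMB WT 4, the transcription factor gene *Lef1* at 39.0 in PFC WT 1 and *Calb1*, which encodes the calcium-binding protein calbindin, at 869 in PFC Mutant 2. The mitochondrial mRNA *mt-Nd4l* stood at 15745 in PFC WT 2 and at 14259 in PFC Mutant 4.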

How the results depend on the processing

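The count of interactions called was 0 under every alternative with all libraries, 1 (*Gm14387*) with PFC WT 3 and PFC Mutant 2 left out and 0 to 1 when any 1 library was left out. Weakened genes numbered 31 at a mean of at least 50, 77 with PFC WT 3 and PFC Mutant 2 left out and 77 with vMB WT 3 and vMB Mutant 1 also left out. The last settings were chosen after seeing the data. At a regional fold of 1.5 there were 87 weakened, 200 widened and 734 kept genes, and at a fold of 4 there were 20, 12 and 16. When 1 library was left out, weakened genes ranged from 35 to 86, widened from 69 to 124 and kept from 166 to 208. With the length trend removed 518 interactions at an unadjusted p under 0.05 were positive and 412 negative, against 395 and 469. For the 12 kept genes named by rule, whose interactions lie near 0, the 95% interval stayed within 1.3-fold in 161 of 192 fits under other settings and in 107 of 192 with 1 library left out, and the sign of the interaction changed in 23 and in 44 of the 192 fits. For the other 59 genes no interaction passed after adjustment in any of these fits, and the sign changed in 0 of 941 fits under other settings and in 3 of 944 with 1 library left out. All 3 were of the beta-globin gene *Hbb-bs* (0.28 with all libraries, up to 0.62 without PFC Mutant 2, −0.23 without PFC Mutant 4, −0.01 without vMB WT 3 and −0.06 without vMB Mutant 4). Its reads can also match other globin genes. The cause of these changes was not tested.

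With the replicate block there were 0 calls, 906 genes at an unadjusted p under 0.05, 53 weakened, 92 widened and 231 kept. Libraries with the same number were not shown to be paired: the correlations of their deviations from the group means ran from −0.132 to 0.0873. Libraries that share a code in their titles across tissues had correlations of −0.0317 to 0.00764.

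With 4 libraries a group, an interaction had to exceed 0.38 on the log2 scale for a typical gene, and more for regional genes, to leave 0 outside its 95% interval.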
